A study of Mus musculus with 9 samples.

Results

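Hcn2, Hcn3 and Hcn4 are 3 genes for hyperpolarization-activated, cyclic nucleotide-gated channels, chosen by name from the 21536 genes of a single-cell table of the mouse trigeminal ganglion, and all 3 had UMIs in it. The cells came from wild type FVB/N mice of both sexes, the only genotype and treatment studied. The labels give their age as 3 to 6 weeks, and the methods of the study give a narrower range within it. Ganglia were dissociated, enriched for neurons on a Percoll gradient and by depletion of other cells, and captured in 9 Dropseq runs, each of which pooled animals. Dropseq captures single cells in droplets with barcoded beads and counts each captured transcript once by its unique molecular identifier (UMI). The 6997 cell barcodes do not name their run, so the table was treated as 1 sample and has no replicates: all intervals here are 95% intervals for counting error only, and no test between groups of neurons was possible.

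HCN channels open when the membrane is hyperpolarized and carry an inward current of sodium and potassium, called Ih, that brings a neuron back towards its firing threshold. Binding of cAMP to the intracellular end of the channel eases opening, strongly in HCN2 and HCN4 and little in HCN3. Hcn2 is known in sensory neurons for its part in inflammatory pain, Hcn4 for the pacemaker current of the sinoatrial node, and the roles of Hcn3 are less well known.

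The neurons were the 3855 barcodes (55.1% of 6997) with 500 to 7500 genes, a UMI of at least 3 of Tubb3, Scn9a, Snap25, Nefl, Nefm and Uchl1, and none of Epcam, an epithelial gene. They had a median of 3014 UMIs (range 1000 to 55655). Each neuron was placed in the first group whose criterion it met. The groups were 244 neurons with 2 or more UMIs of Trpm8, the cold-sensing channel, 379 with 2 or more of Mrgprd, a receptor of non-peptidergic nociceptors, and 49 with 1 or more of Mrgpra3, a receptor of itch neurons. They were followed by 57 neurons with 2 or more UMIs of Nppb, a peptide of itch neurons, and 320 with 1 or more of Cd34. The last were 450 with 5 or more of the neurofilament gene Nefh and none of Trpv1, and 916 with 5 or more of Calca, the gene of the peptide CGRP, and 1 or more of Trpv1, the capsaicin and heat channel. The remaining 1440 were ungrouped, and 349 neurons, 14.5% of those in a group, met 2 or more criteria. Such overlap was most common in the Trpm8 group, where 95 of 244 neurons met no other criterion, against 279 of 379 in Mrgprd, 28 of 49 in Mrgpra3, 51 of 57 in Nppb and 247 of 320 in Cd34. It could not occur in the Nefh and Calca/Trpv1 groups, which come last and exclude each other.

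The sensory neuron genes Prph, Isl1 and Pou4f1, which the neuron rule did not use, stood at 2793, 258 and 175 UMIs per 1000000 UMIs (CPM) in the neurons. They stood at 106, 6.25 and 7.82 CPM in 1258 other barcodes in which haemoglobin made up at least 5% of the UMIs. These haemoglobin-rich barcodes serve below as a comparison set outside the neurons. They were a mixed set: pituitary markers summed to 34468 CPM in them and glia markers to 4361 CPM. Of these barcodes, 35.1% had UMIs of 2 or more of 9 sensory neuron markers. Whether they lack the channels was not tested. Group medians ran from 3406 to 5835.5 UMIs in the 7 groups, against 1826.5 in the ungrouped neurons and 1297.5 in the haemoglobin-rich barcodes. Markers of glia, 7 genes for myelin and glial proteins, summed to between 259 CPM in the Trpm8 group and 2349 CPM in the Cd34 group, and to 9163 CPM in the ungrouped neurons. Each of the 7 had UMIs in the neurons. Markers of red blood cells summed to 3151 to 6192 CPM in the 7 groups, and those of the pituitary to 217 to 901 CPM. Markers of endothelium summed to 14.1 to 99.2 CPM, of olfactory neurons to 11.9 to 81.0 CPM, and of central neurons to 0.471 to 40.2 CPM. The central neuron marker Gabra6 was not among the genes with counts, so the last sum rests on the other markers. The part of other cells in the levels of the HCN genes was not tested. 6 barcode sequences appeared in 2 columns each, and the 11 neurons among these columns held 2 HCN UMIs.

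The 3 genes lie apart in the genome (GRCm38, the same assembly as mm10, GENCODE annotation): Hcn2 at chr10:79716634-79736108 on the plus strand, Hcn3 at chr3:89146074-89160196 on the minus strand, and Hcn4 at chr9:58823412-58863175 on the plus strand. Each coding transcript has 8 exons, and the proteins are 863, 779 and 1201 residues long. The part of the channels that passes ions is close to that of potassium channels, with the residues glycine, tyrosine, glycine in the selectivity filter. These lines show the coding strand of Hcn3 and Hcn4 around this signature, 5′ to 3′, with its 3 codons in capitals, because it is shared by the family while the transcripts stay distinct enough to be counted apart. Both stretches lie in coding sequence, in exon 4, at chr3:89150997-89151026 (minus) and chr9:58855579-58855608 (plus).
Hcn3: atgctatgcattGGCTATGGGcagcaggca
Hcn4: atgctgtgcattGGGTATGGAcggcaggca
Of the 30 bases, Hcn3 shared 26 with Hcn4. No stretch of 50 bases of the annotated transcripts of the 3 genes occurred in the transcripts of another gene. The 3′ end of Hcn3 overlaps by 711 bases the gene Pklr, a pyruvate kinase of liver and red cells, on the other strand. Pklr had 3 UMIs in all neurons, against 491 of Hcn3.

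All 3 genes were sparse. In the 3855 neurons there were 221 UMIs of Hcn2 in 201 neurons, 491 of Hcn3 in 410 and 120 of Hcn4 in 101. These were 10.6 CPM (9.22 to 12.1) for Hcn2, 23.5 CPM (21.4 to 25.6) for Hcn3 and 5.73 CPM (4.75 to 6.86) for Hcn4. UMIs count transcripts at their 3′ end and were not divided by transcript length, so these levels were not ranked between genes. No neuron held more than 3 UMIs of Hcn2, 4 of Hcn3 or 4 of Hcn4.

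Of the 3, Hcn3 was above the haemoglobin-rich barcodes whichever totals were used, and Hcn2 and Hcn4 were above them on the total of all UMIs only. These barcodes held 5 UMIs of Hcn2 (2.61 CPM, 0.846 to 6.08), 3 of Hcn3 (1.56 CPM, 0.322 to 4.57) and 3 of Hcn4 (1.56 CPM, 0.322 to 4.57). The log2 ratio of neurons to these barcodes was 2.02 (0.78 to 3.66) for Hcn2, 3.91 (2.35 to 6.19) for Hcn3 and 1.88 (0.29 to 4.17) for Hcn4. Haemoglobin made up 52.8% of the UMIs of these barcodes and 0.596% of those of the neurons, which lowers the CPM of every other gene in the former. With mitochondrial and haemoglobin UMIs taken out of the totals, the 3 genes stood at 5.68 CPM (1.85 to 13.3), 3.41 CPM (0.703 to 9.96) and 3.41 CPM in these barcodes. The ratios were then 0.93 (-0.32 to 2.56) for Hcn2, 2.81 (1.26 to 5.10) for Hcn3 and 0.78 (-0.80 to 3.08) for Hcn4, so that only that of Hcn3 left out 0. The shares that follow keep haemoglobin in the totals. With every cell thinned to 1000 UMIs, Hcn3 was seen in 2.85% of neurons and 0.159% of haemoglobin-rich barcodes (10.6% and 0.238% without thinning). The thinned shares were 0.908% and 0.159% for Hcn2 (5.21% and 0.397% without thinning). For Hcn4 they were 0.493% and 0.0795% (2.62% and 0.238% without thinning).

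Hcn2 was highest in the Trpm8 and Nefh groups. The Trpm8 group held 37 UMIs, or 17.4 CPM (12.3 to 24.0), and the Nefh group 52 UMIs, or 15.3 CPM (11.4 to 20.1). Below them came Calca/Trpv1 with 9.24 CPM (6.74 to 12.4), Cd34 with 8.72 CPM (5.75 to 12.7) and Mrgprd with 7.34 CPM (4.70 to 10.9). The ungrouped neurons stood at 9.54 CPM (6.61 to 13.3). The Nppb and Mrgpra3 groups held 1 UMI each, or 3.52 CPM (0.0892 to 19.6) and 3.09 CPM (0.0783 to 17.2), too few to place them in the order.

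Against all other neurons, the log2 ratio of Hcn2 was 0.83 (0.28 to 1.35) in the Trpm8 group and 0.67 (0.19 to 1.12) in the Nefh group. These were the only groups whose interval left out 0. For Trpm8 the interval took in 0 among neurons that met 1 group criterion only (0.43, -0.90 to 1.51, on 7 UMIs), when thinned (1.30, -0.42 to 2.68) and among neurons without markers of other cells (1.04, -0.93 to 2.56). For Nefh it did so in the last of these only (1.22, -0.07 to 2.39). The Trpm8 and Nefh groups themselves differed by 0.19 on the log2 scale (-0.46 to 0.82), and no pair among Calca/Trpv1, Cd34 and Mrgprd differed beyond counting error. Each of the Trpm8 and Nefh groups was above each of these 3, with log2 ratios from 0.73 (0.12 to 1.34) to 1.25 (0.47 to 2.05). Against Calca/Trpv1, the interval of the Nefh group took in 0 without markers of other cells (1.63, -0.10 to 3.56), and that of the Trpm8 group in 3 settings given with that comparison. The intervals of Cd34, Mrgprd, Nppb and Mrgpra3 overlapped that of the haemoglobin-rich barcodes. With mitochondrial and haemoglobin UMIs out of the totals so did those of Trpm8, from 12.6 CPM, Nefh, from 11.8 CPM, and the rest. Overlap of separate intervals does not decide whether the levels differ, and ratios of single groups to these barcodes were not tested.

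Hcn3 had UMIs in all 7 groups and was lowest in the Nefh group. It stood at 31.8 CPM (26.0 to 38.5) in the Mrgprd group, 27.8 CPM (12.7 to 52.9) in Mrgpra3, 26.5 CPM (21.1 to 32.9) in Cd34 and 25.9 CPM (19.5 to 33.8) in Trpm8. Nppb followed with 24.7 CPM (9.91 to 50.8), Calca/Trpv1 with 19.9 CPM (16.2 to 24.3) and Nefh with 14.1 CPM (10.4 to 18.7). The ungrouped neurons stood at 24.98 CPM (20.1 to 30.7). These levels rest on 104, 9, 82, 55, 7, 97, 48 and 89 UMIs in that order, and 4 of the 9 UMIs of the Mrgpra3 group came from 1 neuron.

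The log2 ratio of Hcn3 to all other neurons was -0.84 (-1.30 to -0.41) in the Nefh group and 0.54 (0.21 to 0.85) in the Mrgprd group, and no other group's interval left out 0. When thinned, the Nefh interval took in 0 (-1.001, -2.35 to 0.09, on 7 UMIs). The Mrgprd interval did so when thinned (0.49, -0.40 to 1.28), among neurons that met 1 group criterion only (0.46, -0.02 to 0.91) and among neurons without markers of other cells (0.75, -0.11 to 1.52). Over all neurons, Nefh was below Mrgprd by 1.17 on the log2 scale (0.66 to 1.69), below Cd34 by 0.91 (0.38 to 1.45) and below Trpm8 by 0.88 (0.29 to 1.47). Neighbours in the order did not differ beyond counting error, nor did Nefh and Calca/Trpv1.

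Hcn4 was concentrated in the Trpm8 group. This group made up 6.33% of the neurons and 10.1% of their UMIs and held 49 of the 120 Hcn4 UMIs, or 40.8%. Its level was 23.1 CPM (17.1 to 30.5), and 34 of the 244 neurons (13.9%, 9.85 to 18.9) had a UMI, 8 of them 2 or more. Calca/Trpv1 stood at 4.72 CPM (2.99 to 7.09), with 23 UMIs in 23 neurons, and the ungrouped neurons at 6.18 CPM (3.87 to 9.35). Nefh held 10 UMIs, Mrgprd 9 and Cd34 7, or 2.94 CPM (1.41 to 5.41), 2.75 CPM (1.26 to 5.22) and 2.26 CPM (0.909 to 4.66). The intervals of all these sets of neurons other than Trpm8 overlapped that of the haemoglobin-rich barcodes. Such overlap does not decide whether the levels differ, and ratios of single sets to these barcodes were not tested. The Trpm8 group stood above the interval of these barcodes on either total. With mitochondrial and haemoglobin UMIs left out it was at 23.6 CPM (17.5 to 31.2), against an upper limit of 9.96 CPM.

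The Mrgpra3 and Nppb groups held 0 UMIs of Hcn4, which at 3 counts allows up to 9.28 and 10.6 CPM, so Hcn4 was not detectable there at this depth. With the counting error of both groups, the log2 ratios of Trpm8 to Mrgpra3 and to Nppb had lower limits of 0.96 and 0.78. The log2 ratio of Trpm8 to all other neurons was 2.61 (2.06 to 3.16), or 6.12-fold, against 3.78 CPM in the others. The ratio was negative in Mrgprd at -1.19 (-2.36 to -0.22), Cd34 at -1.49 (-2.83 to -0.40) and Nefh at -1.09 (-2.19 to -0.16). The other neurons in these last 3 ratios include the Trpm8 group.

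**Figure D1:**
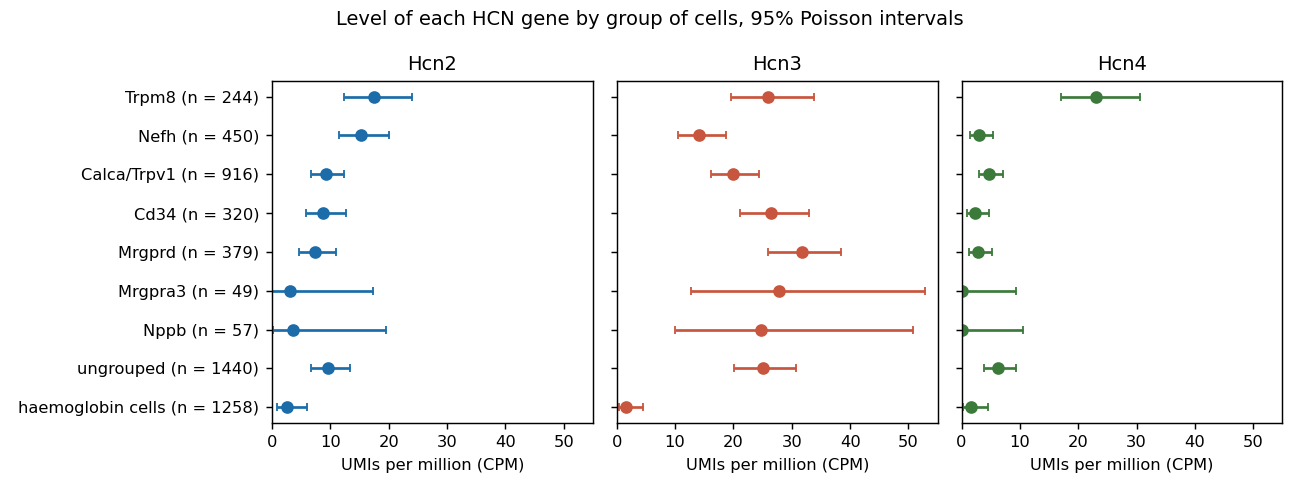
Level of Hcn2, Hcn3 and Hcn4 in CPM (horizontal axis) in each group of cells (vertical axis, with the number of cells). Points are the summed level and bars the 95% Poisson interval for counting error, or up to 3 counts where a group held 0 UMIs, so the reader can see Hcn4 at 23.1 CPM in the Trpm8 group apart from every other group, Hcn3 lowest among neurons at 14.1 CPM in the Nefh group, and Hcn2 highest at 17.4 and 15.3 CPM in the Trpm8 and Nefh groups.

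The Hcn4 level of the Trpm8 group was not the same at every depth. In its 67 neurons of over 10000 UMIs, there were 39 UMIs in 25 neurons, or 29.7 CPM (21.1 to 40.5), against 2.74 CPM in the 432 other neurons of that depth, a log2 ratio of 3.44 (2.66 to 4.25). In its 117 neurons of 3000 to 10000 UMIs there were 5 UMIs, or 7.26 CPM (2.36 to 16.9), against 4.27 CPM in 1320 others, a log2 ratio of 0.77 (-0.96 to 2.15). In the 60 below 3000 UMIs there were again 5 UMIs, or 42.6 CPM (13.8 to 99.3), against 5.35 CPM, a log2 ratio of 2.99 (1.21 to 4.48). The difference was thus beyond counting error among the deepest and the shallowest neurons and not in the middle range, where the level of the Trpm8 group was itself below that of the deepest neurons.

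Most of the Hcn4 UMIs of the Trpm8 group came from its deepest neurons. The ratio was 2.82 (1.86 to 3.67) among the neurons that met 1 group criterion only, of which 95 were in the Trpm8 group, and 2.85 (1.15 to 4.38) among neurons without markers of other cells. It was 2.56 (1.98 to 3.12) without the neuron that held most Hcn4 UMIs in each set. With group thresholds raised by 1 it was 2.13 (1.50 to 2.72), and from the mean CPM per cell 2.22. Over all 11 alternatives it ran from 0.77 to 2.99. Thinned to 1000 UMIs, 6 of 244 Trpm8 neurons (2.46%, 0.908 to 5.28) kept a UMI.

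**Figure D2:**
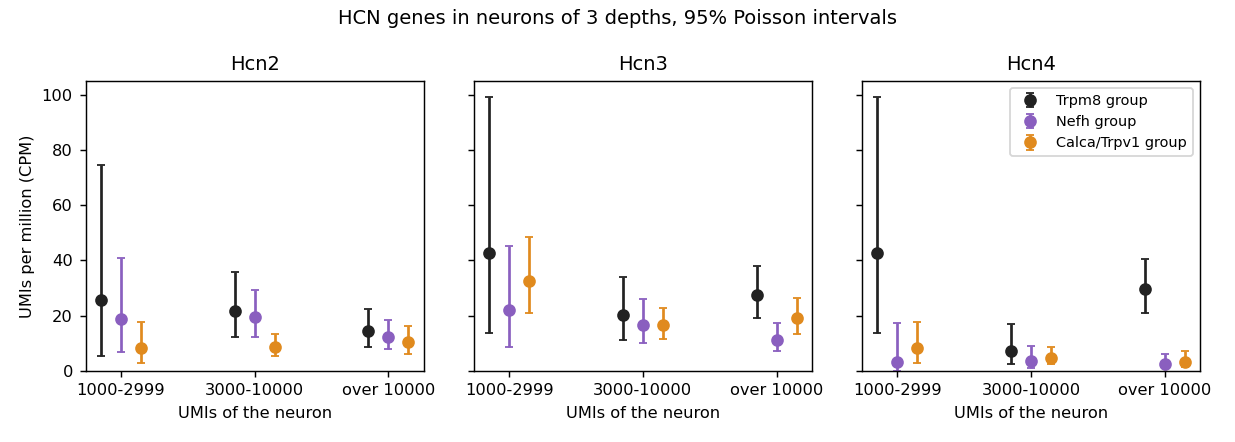
Level of each HCN gene in CPM (vertical axis) in the Trpm8, Nefh and Calca/Trpv1 groups, for neurons of 3 ranges of depth (horizontal axis). Bars are 95% Poisson intervals; the Trpm8 group stands apart for Hcn4 among neurons of over 10000 UMIs, at 29.7 CPM, and overlaps the others at 3000 to 10000 UMIs, where it stands at 7.26 CPM.

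Neurons with a single Trpm8 UMI lay just outside the Trpm8 group. The 145 of them held 8 Hcn4 UMIs, or 11.99 CPM (5.18 to 23.6), against 3.47 CPM (2.67 to 4.44) in the 3466 neurons with none, a log2 ratio of 1.79 (0.51 to 2.85). The level was 34.5 CPM (23.4 to 48.9) in the 155 neurons with 2 to 4 Trpm8 UMIs and 14.7 CPM (8.73 to 23.3) in the 89 with 5 or more. Hcn4 thus did not follow the Trpm8 count upwards within the group: the log2 ratio of the latter to the former was -1.23 (-2.15 to -0.34). These bins follow depth as well, with medians of 4334 and 9935 UMIs. Hcn2 was 17.8 and 17.2 CPM in the same bins, a log2 ratio of -0.05 (-1.06 to 0.98), and Hcn3 was 21.1 and 29.5 CPM, a log2 ratio of 0.48 (-0.36 to 1.36).

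Within the Trpm8 group, the 137 neurons with 3 or more UMIs of Nefh and fewer of the peptide gene Gal held 26 Hcn4 UMIs, or 21.8 CPM (14.2 to 31.9). The 67 with 3 or more of both held 22, or 27.8 CPM (17.4 to 42.1). Only 18 neurons had 3 or more UMIs of Gal and fewer of Nefh, with 1 UMI of Hcn2, none of Hcn3 and 1 of Hcn4. The log2 ratio of the 137 to these 18 was 0.96 (-1.65 to 6.32) for Hcn2 and 1.02 (-1.58 to 6.38) for Hcn4, so a difference was not detectable at this depth.

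Over all neurons, Hcn2 was higher in those that kept most Nefh UMIs after thinning than in those that kept none, and Hcn3 was lower. Neurons were binned by the Nefh UMIs left after thinning to 1000 UMIs, and the levels were taken from all their UMIs. The 2313 neurons left with 0 Nefh UMIs had 8.40 CPM (6.83 to 10.2) of Hcn2, the 1084 with 1 or 2 had 9.96 CPM (7.55 to 12.9), the 331 with 3 to 5 had 15.7 CPM (11.0 to 21.6) and the 127 with 6 or more had 28.7 CPM (18.9 to 41.8). The last against the first gave a log2 ratio of 1.77 (1.10 to 2.40). Hcn3 stood at 23.7, 26.4, 19.5 and 12.8 CPM, a log2 ratio of -0.89 (-1.86 to -0.06) between the ends. Hcn4 stood at 4.45, 8.39, 5.09 and 7.45 CPM, with 0.74 (-0.64 to 1.89) between the ends. The median depth of the 4 bins was 2962 to 3125 UMIs, but the mean was 5147 and 5278 UMIs in the first 2 bins and 7126 and 7397 in the last 2. With the HCN genes thinned as well, 10 of the 2313 neurons that kept no Nefh UMI (0.432%, 0.208 to 0.794) and 7 of the 127 with most of it (5.51%, 2.24 to 11.0) kept a UMI of Hcn2, against 4.06% and 16.5% without thinning. For Hcn3 they were 65 (2.81%, 2.18 to 3.57) and 2 (1.57%, 0.191 to 5.57), against 10.1% and 7.09%, so its difference was not detectable at that depth.

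**Figure D3:**
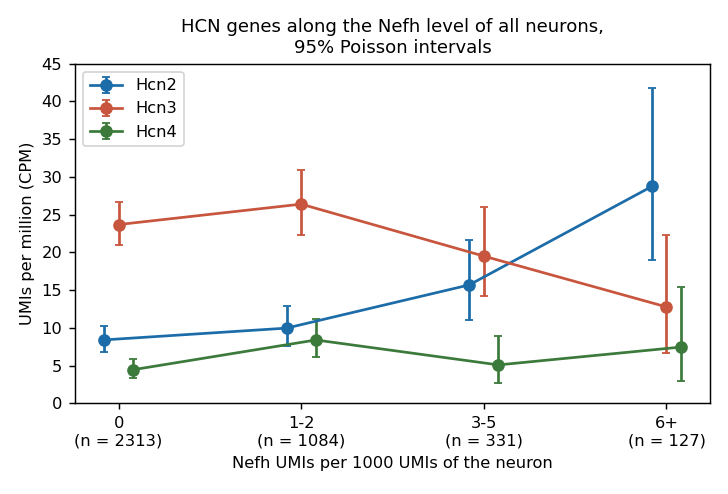
Level of each HCN gene in CPM (vertical axis) in all 3855 neurons, binned by the Nefh UMIs that a neuron kept after thinning to 1000 UMIs (horizontal axis, with the number of neurons). Bars are 95% Poisson intervals; Hcn2 goes from 8.40 to 28.7 CPM from the first bin to the last, and Hcn3 from 23.7 to 12.8 CPM.

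Inside the Nefh group, Hcn2 was lower with Calca when all UMIs were counted. The 89 neurons with 5 or more Calca UMIs held 5 Hcn2 UMIs, or 5.41 CPM (1.76 to 12.6). The 124 with a UMI of Ntrk2, the receptor of BDNF that marks some mechanoreceptors, and fewer than 5 of Calca held 23, or 18.6 CPM (11.8 to 27.9). The 237 with neither held 24, or 19.4 CPM (12.4 to 28.9). The median depth was 6021, 5116 and 3161 UMIs in that order. The log2 ratio to the neurons with neither was -1.84 (-3.59 to -0.42) with Calca and -0.06 (-0.95 to 0.83) with Ntrk2. Hcn3 stood at 13.0, 15.4 and 13.7 CPM in the same order, and its ratios had intervals that included 0, as did those of Hcn4 on 2, 2 and 6 UMIs.

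In the Calca/Trpv1 neurons, the largest group, neither a split by Trpa1 nor one by Nefh gave a ratio whose interval left out 0. The 391 with a UMI of Trpa1, the irritant channel, and fewer than 5 of Nefh had 12.2 CPM of Hcn2 and 6.82 CPM of Hcn4, against 7.29 and 2.24 CPM in the 448 with neither. The log2 ratios were 0.74 (-0.28 to 1.83) and 1.60 (-0.07 to 3.67), the last on 14 and 4 UMIs. Hcn3 stood at 19.5 and 18.5 CPM, a ratio of 0.07 (-0.63 to 0.79). The 77 with 5 or more UMIs of Nefh held 7 UMIs of Hcn2, or 6.77 CPM (2.72 to 14.0). Their log2 ratio to the neurons with neither was -0.11 (-1.67 to 1.33) for Hcn2, 0.33 (-0.49 to 1.13) for Hcn3 and 1.11 (-1.11 to 3.44) for Hcn4. The median depth was 11255 UMIs in the 77 and 2933.5 in those with neither. Unlike the bins over all neurons, this split counts Nefh UMIs before thinning, and the Hcn2 interval is wide. Whether Hcn2 is higher with Nefh in this group was thus not decided.

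The depth ranges bear on the other differences too. Hcn2 in the Trpm8 group against all other neurons had log2 ratios of 1.52 (-0.84 to 3.20), 1.01 (0.10 to 1.82) and 0.64 (-0.17 to 1.38) from the shallowest to the deepest range. In the Nefh group the Hcn2 ratios were 1.13 (-0.43 to 2.44), 0.89 (0.12 to 1.60) and 0.40 (-0.33 to 1.08). Hcn3 in the Nefh group gave -0.44 (-1.80 to 0.66), -0.44 (-1.21 to 0.26) and -1.18 (-1.89 to -0.54), and in the Mrgprd group 0.16 (-1.32 to 1.34), 0.67 (0.08 to 1.23) and 0.62 (0.18 to 1.05). Each of these ratios had the direction seen over all depths, and several had an interval that included 0.

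Neurons in which an HCN gene was seen were deeper than the rest. Of the 3855 neurons, 631 (16.4%) had a UMI of any of the 3, of which 554 had exactly 1 gene, 73 had a pair and 4 had all 3. The median depth was 6487 UMIs in the 631 and 2661.5 in the rest. With the neurons in 4 sets of nearly equal size, from the shallowest to the deepest, Hcn3 was seen in 4.67%, 5.29%, 9.14% and 23.4%, Hcn2 in 1.66%, 1.76%, 5.61% and 11.8%, and Hcn4 in 0.830%, 1.45%, 2.18% and 6.02%. Hcn2 and Hcn3 were seen together in 45 neurons, where 21.4 would be seen if the genes were independent, Hcn2 and Hcn4 in 16 (5.27) and Hcn3 and Hcn4 in 24 (10.7). The neurons with a pair had median depths of 14922 to 27459 UMIs. In the Trpm8 group alone, Hcn2 and Hcn4 were seen together in 9 neurons (4.60), Hcn3 and Hcn4 in 9 (5.99) and Hcn2 and Hcn3 in 5 (5.82).

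Of the 3 direct comparisons of groups, Nefh with Calca/Trpv1 and Trpm8 with Calca/Trpv1 share the Calca/Trpv1 neurons, so they are given side by side. A gene counted as past 2-fold if its log2 ratio was 1 or more either way and it had 50 or more UMIs in both groups together. In Nefh against Calca/Trpv1, 8.10% of 10294 genes were 2-fold or more higher and 9.32% lower, and none of the HCN genes was past 2-fold. Hcn2 had a log2 ratio of 0.73 (0.12 to 1.34), Hcn3 of -0.50 (-1.03 to 0.02) and Hcn4, on 10 and 23 UMIs too few for the count, of -0.68 (-1.92 to 0.45).

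In Trpm8 against Calca/Trpv1, 5.83% of 9790 genes were 2-fold or more higher and 12.8% lower, and Hcn4 was the 1 HCN gene past 2-fold. Its log2 ratio was 2.29 (1.55 to 3.07), or 4.89-fold, and it fell to 0.60 (-1.27 to 2.24) among neurons of 3000 to 10000 UMIs. Hcn2 had 0.92 (0.25 to 1.58), and its interval took in 0 among neurons that met 1 criterion only (0.58, -0.81 to 1.74), when thinned (1.91, -0.21 to 4.03) and without markers of other cells (1.61, -0.73 to 3.82). Hcn3 had 0.38 (-0.12 to 0.87). In Cd34 against Mrgprd, 9.42% of 9350 genes were 2-fold or more higher and 7.24% lower, and none of the HCN genes was past 2-fold. Hcn2 had 0.25 (-0.60 to 1.11), Hcn3 -0.26 (-0.70 to 0.17) and Hcn4, on 7 and 9 UMIs, -0.28 (-1.94 to 1.31). The median log2 ratio over all genes compared was -0.07, -0.10 and 0.06 in the 3 comparisons.

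The counts of the 6 lists that follow stand beside the shares of all genes past 2-fold given above, and no list was tested against them. A gene with few UMIs in 1 group could reach the minimum of 50 through the group where it was high, so the counts and medians describe the genes compared and support nothing about the lists. Among 8 genes for HCN partner proteins, 4 had enough UMIs in each comparison. Pex5l, which encodes TRIP8b, an auxiliary subunit that controls the transport of HCN channels and their response to cAMP, was higher than in Calca/Trpv1 by 1.07 (0.81 to 1.33) on the log2 scale in Nefh and by 1.91 (1.66 to 2.17) in Trpm8. Its level was 185 CPM in Cd34, 162 in Trpm8, 99.9 in Mrgprd, 90.7 in Nefh, 49.3 in Nppb, 43.1 in Calca/Trpv1 and 37.1 in Mrgpra3, so the order of Pex5l began with a group in which Hcn4 was low. Nedd4l, a ubiquitin ligase of membrane channels, had log2 ratios of -1.48 (-1.70 to -1.28) and -2.09 (-2.41 to -1.79) in the same comparisons. Flna, the actin-binding filamin A, had -1.65 in Trpm8 against Calca/Trpv1 and -1.13 in Cd34 against Mrgprd. In counts, 1 of 4 was past 2-fold higher and 1 lower in Nefh against Calca/Trpv1, 1 and 2 in Trpm8 against Calca/Trpv1, and 0 and 1 in Cd34 against Mrgprd. The medians were 0.14, -0.73 and -0.32.

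Of 9 genes for adenylyl cyclases, which make the cAMP that gates HCN channels, 7 had enough UMIs in the first comparison and 4 in each of the others. In Nefh against Calca/Trpv1, 2 of 7 were past 2-fold higher and 3 lower (median -0.09), led by Adcy1 at 3.27, on 141 and 21 UMIs, and Adcy5 at -3.07 (-3.65 to -2.53), with Adcy7 at -2.75 and Adcy9 at 1.37. In Trpm8 against Calca/Trpv1, 1 of 4 was higher and 3 lower (median -2.87): Adcy2 stood at 1.10, Adcy5 at -4.12 (-5.26 to -3.18), Adcy3 at -2.67 and Adcy7, on 3 UMIs in Trpm8, at -3.07 (-5.39 to -1.46). In Cd34 against Mrgprd, 2 of 4 were higher and 2 lower (median -0.04), with Adcy1 at 4.20 (3.02 to 5.67), Adcy5 at -2.22, Adcy6 at -1.12 and Adcy9 at 1.05.

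Phosphodiesterases, which break cyclic nucleotides down, were 15 genes and gave 2 of 12 past 2-fold higher and 5 lower in Nefh against Calca/Trpv1 (median -0.06). Pde1c stood at 1.94 (1.69 to 2.19), Pde4d at 1.79, Pde8a at -2.58 and Pde4c, on 1 UMI in Nefh, at -5.63 (-10.95 to -3.11). In Trpm8 against Calca/Trpv1 there were again 2 of 12 higher and 5 lower (median -0.49), led by Pde4c, with 0 UMIs in Trpm8 and 71 in Calca/Trpv1 and an upper limit of -3.03. Pde8a, on 1 UMI in Trpm8, stood at -4.71 (-10.03 to -2.17), Pde1a at -3.19 and Pde10a at -1.83. In Cd34 against Mrgprd, 3 of 8 were higher and 1 lower (median 0.51), with Pde1c at 2.60 (2.29 to 2.93), Pde4b at 1.83, Pde1b at 1.45 and Pde10a at -3.35 (-3.87 to -2.87).

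Of the genes of protein kinase A and Epac, the effectors of cAMP other than the channels, 7 of 8 were compared each time. The regulatory subunit gene Prkar2b was past 2-fold lower in all 3 comparisons, with -1.04 (-1.21 to -0.86) in Nefh and -1.67 (-1.93 to -1.42) in Trpm8 against Calca/Trpv1, and -3.67 (-3.88 to -3.46) in Cd34 against Mrgprd. The catalytic subunit gene Prkacb stood at 1.08 in Nefh, the Epac gene Rapgef4 at -1.09 in Trpm8 and the regulatory subunit gene Prkar1a at 1.35 in Cd34. The counts past 2-fold were 1 higher and 1 lower in Nefh, 0 and 2 in Trpm8 and 1 and 1 in Cd34, with medians of 0.13, -0.33 and -0.14.

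The list of receptors that raise cAMP through Gs also held Gnas, the gene of the Gs alpha subunit itself. Of its 10 genes, 3 had enough UMIs in each of the first 2 comparisons and 2 in the last, Gnas among them each time. Gnas, named here after its values were seen, stood at -0.61, -0.71 and 0.20. None was past 2-fold in Nefh against Calca/Trpv1 (median -0.79). In Trpm8 against Calca/Trpv1, 2 of 3 were lower (median -3.68), both of them receptors. They were the prostacyclin receptor gene Ptgir, with 487 UMIs in Calca/Trpv1 and 4 in Trpm8, at -5.73 (-7.61 to -4.36), and the prostaglandin E2 receptor gene Ptger4, at -3.68 (-5.58 to -2.29). In Cd34 against Mrgprd, 1 of 2 was lower, the serotonin receptor gene Htr4 at -3.02 (-3.93 to -2.22), and the median of -1.41 is that of Htr4 and Gnas.

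Of 9 genes for other channels that act below the spike threshold, 4 had enough UMIs in the first comparison and 3 in each of the others. In Nefh against Calca/Trpv1, 2 of 4 were past 2-fold higher and 1 lower (median 0.86), where 8.10% and 9.32% of all genes were. They were the M-current gene Kcnq3 at 3.37 (2.81 to 3.97), the T-type calcium channel gene Cacna1h at 1.64, and Kcnq5 at -1.47, while the inward rectifier gene Kcnj12, named in this comparison and the next after its values were seen, stood at 0.09. In Trpm8 against Calca/Trpv1, 1 of 3 was higher and 1 lower (median 0.38, all genes 5.83% and 12.8%), with Cacna1h at 1.23 (0.66 to 1.79), Kcnq5 at -3.27 (-4.92 to -2.01) and Kcnj12 at 0.38. In Cd34 against Mrgprd, 3 of 3 were higher and 0 lower (median 4.98, all genes 9.42% and 7.24%). Cacna1h had 149 and 5 UMIs, a log2 ratio of 4.98 (3.72 to 6.62), the T-type gene Cacna1i, which reached the minimum through Cd34 alone with 50 UMIs and 1 UMI, 5.72 (3.18 to 11.06), and Kcnj12 1.39.

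**Figure D4:**
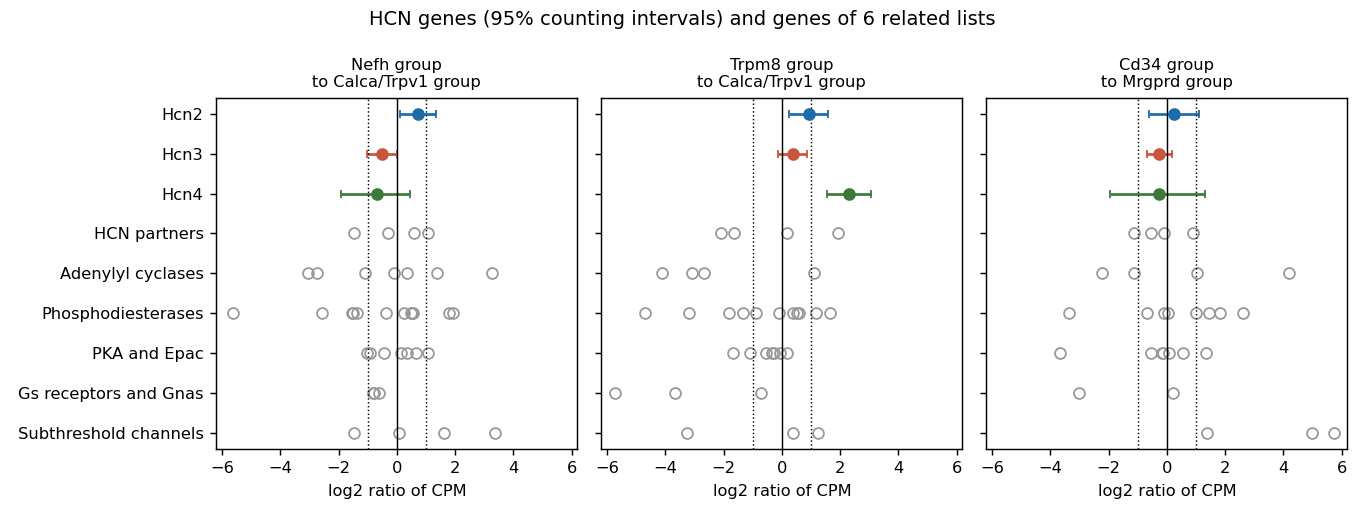
Log2 ratio of CPM (horizontal axis) in 3 comparisons of groups. Filled points are Hcn2, Hcn3 and Hcn4 with 95% counting intervals, open points are single genes of the 6 related lists with 50 or more UMIs and at least 1 in each group, and dotted lines mark 2-fold; Hcn4 at 2.29 in Trpm8 against Calca/Trpv1 is the 1 HCN gene past 2-fold, while genes of the lists range from -5.73 to 5.72.

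The genes whose levels followed each HCN gene most closely were found by Pearson's r of log2(CPM + 5) over the 7 groups and the ungrouped neurons, among 6584 genes with 500 or more UMIs in neurons. With 8 points that share one table and differ in depth, r is a description only. Genes chosen this way follow the HCN gene by the choice itself, so their levels are no separate evidence for its pattern. For Hcn4 they were Lrrc3b (0.97), Mt1 (0.96), Tspan7 (0.95), Cdh8 (0.94) and Hpca (0.94). All 5 were highest in the Trpm8 group: Cdh8, a cadherin, stood at 193 CPM there and at 17.6 to 49.7 CPM elsewhere, and Hpca, the calcium sensor hippocalcin, at 1116 CPM against 24.8 to 175 CPM. For Hcn2 they were Slc24a3 (0.98), a sodium, potassium and calcium exchanger, with Psmd6, Gfm1, Mkrn2 and Gm561 (0.97, 0.97, 0.97 and 0.96). Slc24a3 stood at 114 CPM in Trpm8 and 70.4 CPM in Nefh, and at 12.4 to 52.6 CPM in the rest. For Hcn3 they were Ldb2 (0.93), Rarg (0.92), Fbxl5 (0.92), Ccdc50 (0.91) and Elmo2 (0.89). Ldb2, a cofactor of LIM domain proteins, stood at 76.6 CPM in Nefh and at 250.3 to 503 CPM elsewhere. The choice of genes rests on the measure. With a pseudocount of 1, all 5 remained for Hcn3, 3 for Hcn2 and 2 for Hcn4, and Cdh8 and Hpca were not among them. With a pseudocount of 20, 5, 3 and 3 remained, and by Spearman's rank measure 0, 1 and 1.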

How the data were processed

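The authors deposited whole-number UMI counts per gene and cell barcode, not normalized, for 9 runs merged into 1 table. The submitters' processing notes name bcl2fastq 2.17, STAR 2.5.3a, Seurat 1.4.0.16 and the mm10 build. The table holds 30491529 UMIs, with at least 1000 in each barcode. Barcodes name no run, so the cells were 1 sample, and neither a test between groups nor a fit without a run could be made. How many mice contributed to a cell group is unknown, doublets were not called, and neurons meeting several criteria were left out as an alternative.

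UMIs were summed over the cells of a group and divided by the group's total (CPM). Intervals are exact Poisson for CPM, Clopper-Pearson for shares and conditional binomial for ratios, at 95%, and a count of 0 was given an upper limit of 3 counts. Python 3.11.15, numpy 2.4.6, scipy 1.17.1, pandas 2.3.3 and matplotlib 3.10.9 were used. Thinning drew 1000 UMIs from each cell with a fixed seed, and no cell was lost by it. The ratios and their intervals were checked on simulated data. The members, groups and lists were chosen with earlier results of these data known. Genes of the 6 lists were named if they had 50 or more UMIs in both groups together and a log2 ratio past 1, at most 4 per list and comparison by size, except Gnas and Kcnj12, named after their values were seen. Of the like genes, the 5 with the highest r were named, the genes of the neuron and group rules left out. A gene of 1 list and 1 sequence are not reported here. Symbols, positions and coding sequences came from the GENCODE annotation of GRCm38.

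Alternatives fixed at the start were thinning, 4 of the 6 neuron genes, at most 20% mitochondrial UMIs, group thresholds raised by 1, neurons meeting 1 criterion only, other totals, at least 1000 genes and neurons without markers of other cells. The mean CPM per cell, the range of 3000 to 10000 UMIs, the removal of the cell with most UMIs, the comparisons with all other neurons, the depth ranges, the bins by Trpm8 UMIs and the haemoglobin-rich and glia-marker cells, under each total, were added after seeing the data.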

Additional observations from a re-analysis of the deposited data

Results flagged for a closer look

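Outside the neurons, the CPM of 2 HCN genes on the total of all UMIs stood above that of the haemoglobin-rich barcodes in cells that the comparisons did not use, namely 368 barcodes outside the neuron rule with UMIs of 3 or more of the 7 glia markers. Hcn2 had 32 UMIs in 21 of them, or 10.6 CPM (7.24 to 14.9), against 2.61 CPM in the haemoglobin-rich barcodes. Hcn3 had 39 UMIs in 22 of them, or 12.9 CPM (9.18 to 17.6), against 1.56 CPM. Haemoglobin took 52.8% of the UMIs of the haemoglobin-rich barcodes and 0.257% of those of the glia-marker cells. With mitochondrial and haemoglobin UMIs out of the totals, the log2 ratio of the glia-marker cells to the haemoglobin-rich barcodes was 0.92 (-0.45 to 2.64) for Hcn2, which takes in 0, and 1.94 (0.29 to 4.28) for Hcn3. Hcn4 had 7 UMIs there, or 2.32 CPM (0.931 to 4.77). The most UMIs of Hcn2 and Hcn3 in 1 such cell were 4 each, in barcodes of 104032 and 150462 UMIs, against a median of 1731. After thinning to 1000 UMIs, 4 of the 368 cells (1.09%) kept Hcn2 and 0 kept Hcn3, where a count of 0 allows a share of up to 0.815%. The part of other cell types in these levels was not tested.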

How the results depend on the processing

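No paired analysis was possible because the barcodes carry no run number. For the same reason no run could be left out. Over the 14 log2 ratios between sets of neurons, 151 alternative values were computed: 139 stayed within the counting interval of the ratio reported, 12 fell outside it, and 0 called ratios reversed. Thinned to 1000 UMIs, Hcn2 gave 2.29 (0.68 to 4.15) in Nefh against Calca/Trpv1, 1.91 (-0.21 to 4.03) on 5 and 5 UMIs in Trpm8 against Calca/Trpv1, and 1.98 (0.84 to 3.05) in Nefh against other neurons. Among neurons without markers of other cells, 1254 of 3855, the same 3 ratios were 1.63 (-0.10 to 3.56), 1.61 (-0.73 to 3.82) and 1.22 (-0.07 to 2.39), Hcn2 in Cd34 against Mrgprd was -0.63, and Hcn3 was -1.22 in Nefh against Calca/Trpv1 and -1.49 in Nefh against other neurons. Among neurons of 3000 to 10000 UMIs, chosen after seeing the data, Hcn4 was 0.60 in Trpm8 against Calca/Trpv1, 0.77 in Trpm8 against other neurons and 1.77 in Cd34 against Mrgprd. The cause was not tested, and these settings leave as few as 1 UMI in a group. Hcn4 in Nefh against Calca/Trpv1 when thinned, and in Cd34 against Mrgprd when thinned or without markers of other cells, had 0 UMIs in a group and gave no ratio. The Mrgprd ratio of Hcn3 to other neurons stayed between 0.40 and 0.75, but its interval reached below 0 when thinned, without markers of other cells and among neurons of 1 criterion only, and the interval of the Nefh ratio reached above 0 when thinned and among neurons of 3000 to 10000 UMIs. The log2 ratios of all neurons to the haemoglobin-rich barcodes kept their direction under every setting run, but with mitochondrial and haemoglobin UMIs out of the totals the intervals of Hcn2 and Hcn4 took in 0, as did that of Hcn4 among neurons of 1 criterion only, without markers of other cells and of 3000 to 10000 UMIs. Of the 24 levels, one for each gene and set of neurons, 11 fell outside their interval when thinned, 9 without markers of other cells and at most 3 under any other setting. Of the 24 shares of neurons with a UMI, 21 fell below their interval when thinned and 21 when 2 UMIs were required. Depth limits every value: a single UMI in the Mrgpra3 or Nppb group is worth 3.09 or 3.52 CPM.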
